A study of Mus musculus with 16 samples.

Results

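Genes known from the neural crest, Schwann cells, oligodendrocytes and melanocytes were followed through single-cell transcriptomes of mouse mammary tumours. They are Sox10, Mbp, S100b, Scrg1, Cnp, Cldn11, Pmel and Col20a1, 8 of the 23829 genes in the count tables. The 8 genes were chosen by measured values of these same data, namely their high counts in WB1P-Myc cells and low counts in WB1P cells. The contrast of the models and the levels in cell clusters are therefore given as descriptions, without a test.

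The neural crest is a migratory cell population of the vertebrate embryo that gives rise to Schwann cells, peripheral neurons, melanocytes and part of the facial cartilage. Sox10, a transcription factor, is needed for the glial and pigment branches and stays on in Schwann cells, oligodendrocytes and melanocyte precursors. It is also known in mammary epithelium and in triple-negative breast cancer (TNBC). Myelin is the stack of membrane that Schwann cells and oligodendrocytes wrap around axons, and Mbp, Cnp and Cldn11 encode 3 of its proteins.

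The WB1P genotype is WapCre;Brca1F/F;Trp53F/F, where the milk protein promoter Wap drives Cre, so that Brca1 and Trp53 are lost in epithelial cells of the mammary gland. The WB1P-Myc genotype adds a Myc allele that Cre switches on, and both groups thus share the loss of Brca1 and Trp53. The tissue was untreated end-stage mammary tumour, and the age of the animals was not given in the sources used here. Live dapi-negative single cells were sorted, and Drop-seq was run on 1 cell suspension per model in 4 droplet fractions. The method pairs each cell with a barcoded bead in a droplet and reads transcript 3′ ends, which are counted by unique molecular identifiers (UMIs). The labels number the libraries of a model as sample 1 to 4, which are read here as the 4 droplet fractions of the study's methods. On that reading a fraction is a technical repeat. The study's text gives 2 mice per model, but no label ties a fraction to a mouse. Each model was thus treated as 1 sample without a biological replicate, and the droplet run and the model cannot be told apart. The HiSeq tables of the fractions held 256985 to 1918672 UMIs in WB1P and 3814562 to 4960334 in WB1P-Myc. Barcodes with 450 to 4000 genes and under 20% mitochondrial UMIs gave 1307 WB1P cells (65, 426, 394 and 422 by fraction) and 3491 WB1P-Myc cells (950, 889, 756 and 896). WB1P fraction 1 stood apart by its 65 cells, and results whose call rests on it are given with and without it. Different HiSeq libraries shared 3 barcodes, 1 of them among the kept cells. Levels are in UMI counts scaled to a library total of 1000000 (CPM), and the intervals in brackets are 95% intervals for counting error only.

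All 8 genes were higher in WB1P-Myc cells when the cells of each model were pooled, and 7 of the 8 were at least 4-fold higher with no overlap between the fractions of the models. Over all 12234 genes with at least 50 UMIs, 4.15% met the same condition, and the median gene differed by 0.04 on the log2 scale. Because the 8 genes were selected on this contrast, nothing is read from that count.

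Sox10 was the gene with the smallest difference and the only one of the 8 whose fractions overlapped. Its level was 148, 31.8, 34.4 and 33.6 CPM in WB1P fractions 1 to 4 and 139, 154, 156 and 119 CPM in WB1P-Myc. Pooled, the levels were 36.4 CPM [30.3 to 43.5] and 142 CPM [135 to 149], a 3.89-fold difference, or 1.96 on the log2 scale [1.69 to 2.24]. The WB1P fraction with the high value was fraction 1, where Sox10 rested on 14 UMIs in 7 cells, 5 of them in a single cell [81.1 to 249]. Without that fraction the difference was 4.27-fold and all 8 genes met the 4-fold condition. Sox10 was thus measured in both models, and 7.04% of WB1P cells and 26.2% of WB1P-Myc cells carried a Sox10 UMI.

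The 3 myelin genes differed far more. Mbp, which encodes a protein that compacts the myelin membrane, stood at 10.6, 6.18, 1.97 and 6.35 CPM in WB1P and at 467, 585, 334 and 365 CPM in WB1P-Myc. These were 17 and 5273 UMIs, a log2 difference of 6.44 [5.76 to 7.22]. Cnp, a cyclic nucleotide phosphodiesterase of myelinating cells, stood at 0, 19.4, 13.8 and 14.5 CPM in WB1P and at 279, 321, 205 and 227 CPM in WB1P-Myc. Its log2 difference was 4.07 [3.67 to 4.49]. In WB1P the pooled levels, 5.08 CPM for Mbp and 15.5 CPM for Cnp, lay below those of its macrophage-like cells, 15.05 and 27.1 CPM. Those cells are part of the pool and stood above it. Their level therefore cannot serve as a background for these 2 genes in WB1P. Cldn11, a tight junction protein of oligodendrocyte myelin, was close to absent from WB1P, with 1 UMI in 1307 cells. In WB1P-Myc it stood at 150, 152, 102 and 117 CPM, a log2 difference of 8.78 with the wide interval that 1 UMI allows [6.30 to 14.1]. No WB1P fraction reached the lowest WB1P-Myc fraction for any of the 3 genes.

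S100b and Scrg1 were intermediate, with a measurable WB1P level. S100b, a calcium-binding protein of glia, stood at 21.2, 22.1, 17.7 and 28.1 CPM in WB1P and at 282, 259, 273 and 294 CPM in WB1P-Myc, a log2 difference of 3.61 [3.28 to 3.96]. Scrg1, a small secreted protein first described in scrapie-infected brain, stood at 10.6, 11.5, 13.8 and 9.98 CPM in WB1P and at 153, 132, 121 and 147 CPM in WB1P-Myc. Its log2 difference was 3.58 [3.12 to 4.07]. The fractions of each model lay close together for both genes.

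Pmel and Col20a1 had 2 UMIs each in all WB1P cells. Pmel encodes the protein that forms the fibrils of melanosomes, and Col20a1 encodes a chain of a collagen associated with fibrils. In WB1P-Myc the Pmel level was 57.6, 52.9, 55.6 and 44.7 CPM, and its log2 difference from WB1P was 6.47 [4.61 to 9.52]. The Col20a1 level was 49.6, 52.9, 53.1 and 41.8 CPM, and its log2 difference was 6.37 [4.51 to 9.42].

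**Figure D1:**
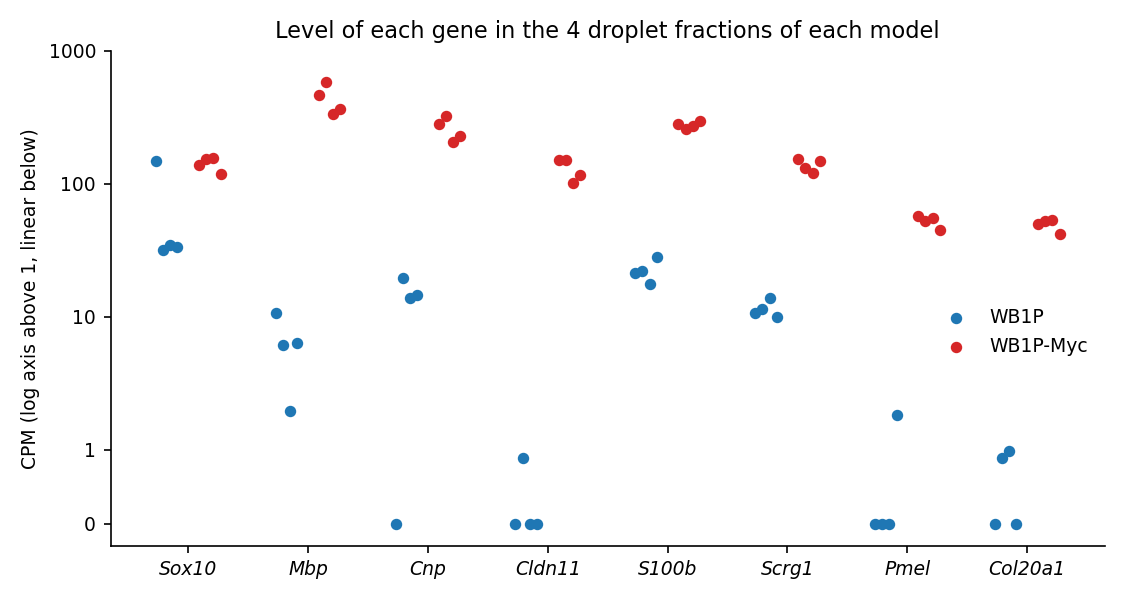
CPM of each of the 8 genes in the 4 droplet fractions of WB1P and WB1P-Myc, on an axis that is logarithmic above 1 CPM and linear below. Each point is 1 fraction. For 7 genes every WB1P-Myc point lies above every WB1P point, while the Sox10 value of WB1P fraction 1 (148 CPM) lies within the WB1P-Myc range.

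Cells of the models differed in depth, so the shares of cells with a UMI were also taken after each cell was reduced at random to 600 UMIs, which left out 1 WB1P-Myc cell. At that equal depth, an Mbp UMI was present in 0.383% of WB1P cells and 12.9% of WB1P-Myc cells. The share was 1.99% and 7.56% for Sox10, 1.15% and 10.3% for Cnp, and 1.22% and 11.1% for S100b. Scrg1 was seen in 0.918% and 5.64% of cells and Cldn11 in 0.0765% and 5.59%. No WB1P cell kept a Pmel or Col20a1 UMI, against 2.41% and 2.84% of WB1P-Myc cells. The model with the higher share was WB1P-Myc for all 8 genes. A count of 0 in 1307 cells allows a share of up to 0.230% for cells with a UMI.

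In the MiSeq run 423 WB1P and 791 WB1P-Myc cells passed the same limits. Its tables shared 2 to 11 of 1000 barcodes per fraction with the HiSeq tables, so the runs held almost entirely different barcodes. The study's methods put the libraries on both instruments, so the MiSeq values are a further measurement of the same fractions and not a replicate. Whether the few shared barcodes are the same cells was not resolved. There Sox10 stood at 32.6 CPM in WB1P and 130 CPM in WB1P-Myc, and Mbp at 10.1 and 538 CPM. Cldn11 and Pmel had no UMI in the WB1P cells, so that their levels were at least 34.6-fold and at least 11.5-fold higher in WB1P-Myc when 3 counts over the group were taken as the limit. The fractions of the models did not overlap for any of the 8 genes in that run. A share over all genes was not taken for that run, and the 8 genes were selected on this contrast. Nothing is therefore read from that count.

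An entry for 4 of the 8 genes was found in the RefSeq promoter table for GRCm38.p6, namely for S100b, Cnp, Cldn11 and Col20a1. Sox10, Mbp, Scrg1 and Pmel had none. The 250 bases before each start were searched on both strands for ACAAAG and ACAATG, core motifs bound by SOX factors, because Sox10 is itself one of the 8 genes. The windows of Cnp and Col20a1 each held 1 ACAAAG, at 167 and 213 bases before the start, and those of S100b and Cldn11 held neither motif. Of all 32851 promoters, 16.5% held ACAAAG, 10.7% held ACAATG and 25.2% held at least 1 of them, so 2 windows of 4 is a description of letters and says nothing of binding. The printed stretches are chr11:100574689-100574888 for Cnp and chr2:180986285-180986484 for Col20a1, both from the plus strand of GRCm38.p6, with the motif in capitals. In Col20a1 the motif lies on the minus strand and reads as its reverse complement. The Col20a1 stretch lies inside the RefSeq span of that gene, upstream of the start used in the promoter table.
Cnp: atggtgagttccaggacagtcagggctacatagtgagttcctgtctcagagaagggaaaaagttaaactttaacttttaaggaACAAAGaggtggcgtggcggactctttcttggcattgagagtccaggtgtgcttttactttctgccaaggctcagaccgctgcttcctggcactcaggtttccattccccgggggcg
Col20a1: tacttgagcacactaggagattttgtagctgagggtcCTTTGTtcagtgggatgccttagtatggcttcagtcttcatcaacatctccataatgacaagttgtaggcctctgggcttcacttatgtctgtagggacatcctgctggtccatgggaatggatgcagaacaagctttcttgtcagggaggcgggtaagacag

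The genes lie on 7 chromosomes, with Sox10 at chr15:79154913-79164490, S100b at chr10:76253836-76261319, Pmel at chr10:128695888-128720238, Scrg1 at chr8:57455882-57479360, Cnp at chr11:100574909-100591875, Cldn11 at chr3:31149920-31164326 and Col20a1 at chr2:180983323-181017545, and with Mbp on chromosome 18. Positions are those of the RefSeq annotation of GRCm38.p6, which is the assembly behind the mm10 build named in the submitters' processing notes. Whether reads were counted by strand was not given in the sources used here, so overlapping genes matter. Sox10, S100b, Scrg1 and Cldn11 overlapped no other annotated gene. Cnp overlaps Dnajc7, a cochaperone gene, which itself stood at 95.7 CPM in WB1P and 311 CPM in WB1P-Myc among non-stromal cells. Pmel overlaps Rab5b, Cdk2 and Dgka, whose levels were at most 27.0 CPM in either model. Mbp and Col20a1 overlap predicted genes or a pseudogene. How reads of overlapping genes were divided was not tested.

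Cells were clustered without the 8 genes and without lists of neural crest, Schwann cell and myelin, melanocyte and oligodendrocyte genes, which gave 7 clusters. Cartilage genes were kept in the clustering and helped to form the clusters. By their markers 2 were epithelial-like, and 1 each was fibroblast-like, macrophage-like and endothelial-like. The other 2 met the markers of no type and are called by their leading genes. Cells outside the fibroblast-like, macrophage-like and endothelial-like clusters are called non-stromal, and there were 672 of them in WB1P and 2436 in WB1P-Myc. No glial type was among the types with markers, so Schwann cells of the animal would also be called non-stromal. Whether the non-stromal cells are tumour cells was not tested. The WB1P non-stromal cells lay almost entirely in 1 epithelial-like cluster led by Csn3 and Lcn2, with 650 WB1P cells. The WB1P-Myc non-stromal cells lay in an epithelial-like cluster led by Gpx2 and Gcat (1211 cells), in an unnamed cluster led by Lims2, Pmel and Mbp (952 cells) and in an unnamed cluster led by Dlk1 (266 cells). No doublet caller was run. Since different clusters hold the non-stromal cells of the models, the values below compare populations as well as genotypes.

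All 8 genes were highest in the Lims2, Pmel and Mbp cluster. Sox10 stood at 249 CPM there [235 to 265], with fraction values of 234, 302, 258 and 206 CPM, and at 149 CPM [136 to 162] in the Gpx2 and Gcat epithelial-like cluster, with 149, 136, 176 and 130 CPM. The Sox10 level was 58.3 CPM [48.2 to 69.8] in the WB1P epithelial-like cluster. It was 22.4, 21.7 and 15.4 CPM in the endothelial-like, macrophage-like and fibroblast-like cells of WB1P-Myc, which did not differ beyond their intervals, and 6.68 CPM [3.20 to 12.3] in the Dlk1 cluster. Sox10 thus differed between clusters of 1 tumour model as well as between the models.

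Mbp stood at 1006 CPM [977 to 1036] in the Lims2, Pmel and Mbp cluster, with 1026, 1377, 753 and 825 CPM by fraction, and at 185 CPM [171 to 199] in the Gpx2 and Gcat cluster. It was 30.1 CPM [21.9 to 40.2] in the Dlk1 cluster, 48.2 CPM [36.9 to 61.7] in macrophage-like cells and 2.99 CPM [1.10 to 6.50] in the WB1P epithelial-like cluster. S100b stood at 623 CPM [600 to 647] and 130 CPM [119 to 143] in the first 2 of these clusters. Its next level was 33.9 CPM [26.3 to 42.9] in WB1P epithelial-like cells, followed by 33.0 CPM [22.5 to 46.5] in the fibroblast-like and 21.0 CPM [13.8 to 30.5] in the macrophage-like cells of WB1P-Myc and 11.4 CPM [6.62 to 18.2] in the Dlk1 cluster. Intervals of neighbours in this low range overlap. Relative to the Gpx2 and Gcat cluster, 5 of the 8 genes (Mbp, Cldn11, S100b, Scrg1 and Pmel) were at least 4-fold higher with all fractions apart, where 2.64% of 9796 genes were. Clusters are formed from the same cells and Sox10, Cnp and Col20a1 missed the 4-fold limit, so this is given as a description.

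Levels in macrophage-like cells of the same tumours show what droplets of another cell type carried. In WB1P-Myc these were 48.2 CPM for Mbp, 39.6 CPM for Cnp, 21.7 CPM for Sox10, 21.0 CPM for S100b and 10.9 CPM or less for the other 4 genes. Non-stromal cells exceeded them by a log2 ratio of 2.58 [1.80 to 3.50] for Col20a1 up to 4.40 [3.04 to 6.28] for Pmel. With classes set per cell from markers instead of clusters, the 8 log2 ratios were only 0.60 to 0.96, and in the MiSeq run those of Pmel and Col20a1 were 0.92 and 1.17. The values in the Dlk1 cluster lay below those of macrophage-like cells for all 8 genes. In WB1P, Mbp and Cnp were at 15.05 and 27.1 CPM in macrophage-like cells and at 2.99 and 15.4 CPM in epithelial-like cells. The few WB1P counts of these 2 genes were thus not concentrated in epithelial-like cells, whereas Sox10 was at 3.01 CPM in WB1P macrophage-like cells. Among non-stromal cells alone, Sox10 was 57.9 CPM in WB1P and 173 CPM in WB1P-Myc, a log2 difference of 1.58 [1.31 to 1.86]. Without WB1P fraction 1 the WB1P level was 53.4 CPM and the difference 3.25-fold. Cldn11 had no UMI in WB1P non-stromal cells, an at least 110-fold difference. There too 7 of the 8 genes met the 4-fold condition, against 6.35% of 10973 genes.

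At a finer setting the non-stromal WB1P-Myc cells fell mostly into 7 clusters of at least 100 cells, and the 8 genes did not follow 1 order across them. A cluster led by Mag and Mbp (499 cells), which had 28.6 CPM of the epithelial adhesion gene Epcam, held the highest Mbp, Cnp, Cldn11, Scrg1 and Pmel levels. Mbp stood there at 1496 CPM (1525, 1993, 1174 and 1200 by fraction), Cnp at 763 CPM, Cldn11 at 426 CPM, Scrg1 at 436 CPM and Pmel at 165 CPM. A cluster led by Hapln1 and Acan, genes of the cartilage matrix (479 cells, Col2a1 at 4566 CPM), had 280 CPM of Mbp, 158 CPM of Cnp and 99.5 CPM of Cldn11. The myelin genes were thus highest in the first of these clusters in every fraction.

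Col20a1 ran the other way. It stood at 162 CPM [143 to 181] in the Hapln1 and Acan cluster, with 155, 184, 181 and 126 CPM by fraction, and at 77.0 CPM [66.9 to 88.3] in the Mag and Mbp cluster, with 71.0, 91.3, 68.8 and 76.1 CPM. The fractions did not overlap. S100b, which chondrocytes also express, was at a like level in both clusters, with 591 CPM (601, 548, 555 and 661) and 647 CPM (621, 649, 679 and 650), and the fraction ranges overlapped. Sox10 was 196 and 286 CPM there. In a shallow unnamed cluster led by Kcnq1ot1 and Lars2 (151 cells, median 1122 UMIs) Sox10 stood at 293 CPM [222 to 380] and Col20a1 at 144 CPM [95.7 to 208], within the intervals of the highest values above. Another shallow cluster, led by Gm23935 and Lars2 (473 cells, median 1183 UMIs), had Sox10 at 167 CPM and Mbp at 458 CPM.

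Another cluster, led by Mfng and Gcat (221 cells), carried epithelial transcripts, with Epcam at 643 CPM. Sox10 stood at 208 CPM [181 to 237] in it, with 201, 176, 270 and 187 CPM by fraction, and Cnp at 361 CPM [326 to 399], whereas Mbp was at 140 CPM, Scrg1 at 53.5 CPM, Pmel at 19.4 CPM and Col20a1 at 12.9 CPM. A Sox10 UMI was found in 122 of its cells and an Epcam UMI in 174, and 95 cells (43.0%) carried both. Epcam was thus seen in 95 of 122 cells with Sox10 and in 174 of all 221, near what independent detection gives. In the epithelial-like cluster led by Krt17 and Krt14 (333 cells), a Sox10 UMI was found in 96 cells, an Epcam UMI in 284 and both in 92 (27.6%). Sox10 stood there at 82.6 CPM [69.2 to 97.9] and Cldn11, Pmel and Col20a1 at 8.69, 4.35 and 4.35 CPM. Sox10 in that cluster exceeded the level in macrophage-like cells, while Cldn11, Pmel and Col20a1 did not differ from that level beyond their intervals.

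**Figure D2:**
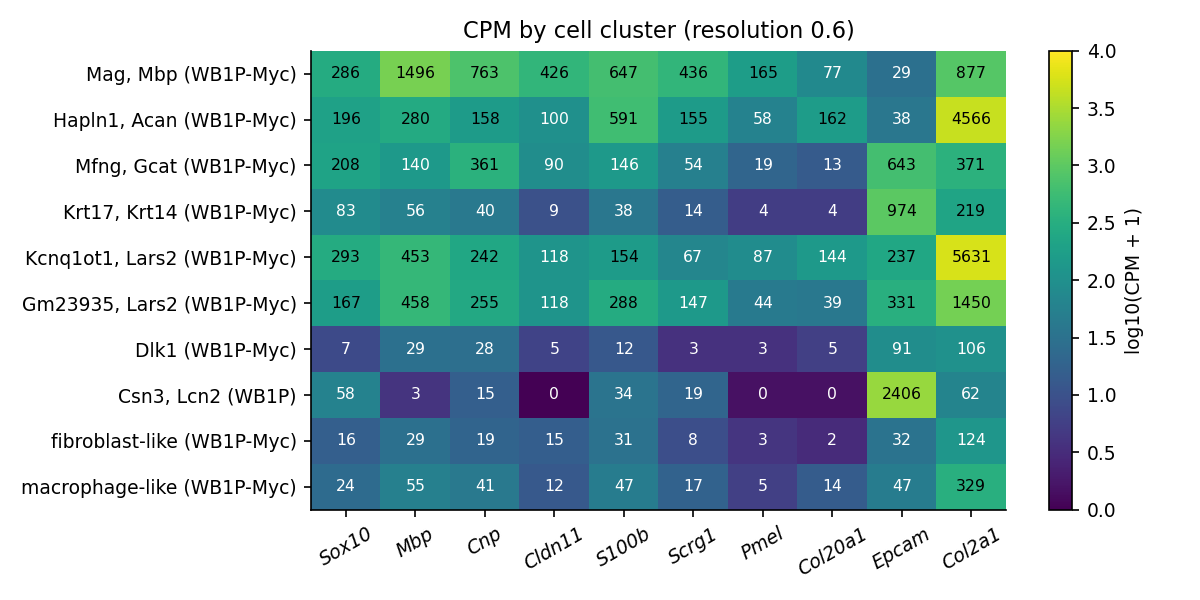
Levels of the 8 genes, as log10(CPM + 1) in colour, and of Epcam and Col2a1 by cell cluster at the finer setting and by model, with the CPM printed in each cell of the map. The Mag and Mbp cluster has the highest Mbp (1496 CPM), the Hapln1 and Acan cluster the highest Col20a1 (162 CPM), and the Dlk1 cluster has low values of all 8 genes.

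Genes related to these 8 were counted from lists, by the same 4-fold condition, in non-stromal cells of WB1P-Myc over WB1P. Over the 10314 genes with at least 50 UMIs in WB1P-Myc cells 6.67% were higher and 2.19% were lower, with a median log2 difference of 0.13. Of 30 further Schwann cell and myelin genes, 23 had that many UMIs, and 17 were higher, 1 was lower and 5 were neither, with a median of 3.35. With at least 50 UMIs in both models together, 25 were counted, and 17 were higher, 1 lower and 7 neither. In the MiSeq run 10 were higher. That run had fewer UMIs, with 890640 in WB1P and 1645477 in WB1P-Myc cells. The number of list genes with enough counts there and the share over all genes are not given, so the 10 cannot be set against the 17. Because the list was drawn up with earlier results of these data known, its count is no independent evidence. Mag, a myelin protein that faces the axon, had no UMI in WB1P and 82.7, 138, 49.6 and 68.3 CPM in WB1P-Myc, an at least 58.0-fold difference. Gjc3, a gap junction gene of myelinating glia, was at 3.92 and 69.6 CPM, and Nes, an intermediate filament gene of progenitor cells, was at 131 and 155 CPM with overlapping fractions. Mog, a protein of the oligodendrocyte surface, had 2 UMIs in all.

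The regulators of the early neural crest did not move in one direction. Of 22, 13 had enough counts, and 3 were higher (Sox6, Tfap2b and Msx1), 4 lower (Sox9, Tfap2a, Tfap2c and Snai1) and 6 neither (2.19% of all genes were lower), with a median log2 difference of -0.37. The sign of that median depended on the filter, since it was 0.11 over the 14 genes with at least 50 UMIs in both models together. Without WB1P fraction 1 the median was -0.17 and Twist1 was also lower, at 57.5 CPM in WB1P and at 7.54 to 15.3 CPM in the WB1P-Myc fractions. Sox9, a relative of Sox10 that drives cartilage formation, was at 179, 377, 318 and 355 CPM in WB1P and at 30.9, 44.9, 37.5 and 33.3 CPM in WB1P-Myc. Sox6 was at 1.47 CPM and 37.7 CPM. Sox5 was at 51.5 and 39.9 CPM and Ets1 at 37.3 and 56.1 CPM, both with overlapping fractions. Sox9 was thus lower in the cells in which Sox10 stood at 173 CPM.

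Of 10 melanocyte genes, 6 were in the tables and 3 had enough counts. Dct, an enzyme of pigment synthesis, had no UMI in WB1P and 10.2, 13.3, 21.3 and 11.5 CPM in WB1P-Myc, an at least 9.36-fold difference. Kit, a receptor of melanocyte precursors, was at 36.3 CPM in WB1P and at 12.3, 12.8, 11.6 and 11.1 CPM in the WB1P-Myc fractions, and it did not meet the condition. Mitf, the regulator of pigment cells, was at 2.94 and 10.4 CPM, and its call rested on 1 UMI of WB1P fraction 1 (11.2 CPM). With that fraction the models overlapped, and without it WB1P was at 2.57 CPM (1.49 to 3.67), all WB1P-Myc fractions were higher (7.99 to 13.0) and the difference of 4.06-fold met the condition. The share of all genes that were higher was 6.67%, or 6.89% without that fraction. Among 6 oligodendrocyte regulators 4 had enough counts, and Nkx2-2 and Myrf were higher, with 0 UMIs in WB1P and 12.3 and 12.1 CPM in WB1P-Myc. Olig1 and Olig2 also had 0 UMIs in WB1P and were at 5.36 and 5.47 CPM in WB1P-Myc, at least 3.65-fold and at least 3.72-fold higher, bounds too low to settle the condition. These 4 genes and Dct passed the UMI filter through WB1P-Myc cells alone. With 0 UMIs in WB1P, their fractions lie apart once each WB1P-Myc fraction holds a UMI. Their calls thus rest only on the WB1P-Myc count against the limit of 3 counts, and nothing is read from them.

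Of 14 cartilage genes, 10 were counted, and 5 were higher, 1 was lower and 4 were neither, where 6.67% and 2.19% of all genes were higher and lower. Genes with few UMIs in WB1P-Myc do not enter this count. With at least 50 UMIs in both models together, 11 were counted, and 5 were higher, 2 lower and 4 neither. By that filter 6.35% of 10973 genes were higher and 3.24% lower. Col2a1, the main collagen of cartilage, was at 22.4, 66.9, 55.1 and 65.5 CPM in WB1P and at 1505, 1390, 1381 and 1413 CPM in WB1P-Myc. Col9a1, another cartilage collagen, was at 265 and 356 CPM, with fractions that overlapped only through WB1P fraction 1 (437 CPM). Without it WB1P was at 257 CPM (229 to 286), all WB1P-Myc fractions were higher (329 to 378), and the difference was 1.38-fold.

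Over the non-stromal WB1P-Myc cells of all clusters together, pairs of the 8 genes tended to be found in the same cell more often than independent detection would give. The genes were chosen for high counts in these cells and their levels differ between clusters. An excess over independence was therefore to be foreseen and is given as a description. Among 2435 non-stromal cells thinned to 600 UMIs, the odds of seeing one gene of a pair given the other were compared with the odds without it. Because thinning is random, 20 draws were made, and the odds ratio of a pair is given as the median of the draws with their range. The median lay above 1 for 28 of 28 pairs, from 1.23 for Sox10 with Col20a1 (0.820 to 2.27) to 5.16 for Mbp with Cldn11 (4.20 to 7.35), and a single draw had 26 to 28 pairs above 1. Mbp with Cnp gave 4.61 (4.08 to 5.71), and Sox10 with Mbp gave 1.89 (1.43 to 2.24). The pairs of myelin genes were the highest, and pairs with Sox10 were among the lowest. With Epcam the median was below 1 for 8 of 8 genes, from 0.158 for Pmel to 0.593 for Sox10 (0.352 to 0.806).

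The cells are not replicates, and cells of different clusters are mixed in these ratios, so they are descriptions. In 3 sets of 812 cells of low, middle and high UMI count, without thinning, the ratio of Sox10 with Mbp was 2.19, 2.37 and 3.59, that of Mbp with Epcam 0.438, 0.314 and 0.323, and that of Sox10 with Epcam 0.403, 0.710 and 0.964. Sox10 and Epcam were thus near independence in the deepest set. Within 6 of the 7 finer clusters with at least 100 cells the ratio of Sox10 with Mbp in the first draw lay between 0.766 and 1.49, below the 1.67 over all these cells, and in the Dlk1 cluster no cell carried both. By droplet fraction it was 1.31, 2.34, 1.47 and 1.49. Mbp with Cldn11 gave 1.21 to 6.60 within the finer clusters, apart from the Krt17 and Krt14 and the Dlk1 clusters, where no cell carried both. Sox10 with Epcam gave 1.34, 1.54, 1.52 and 1.08 in the clusters led by Mfng, Krt17, Hapln1 and Mag, on 8, 9, 1 and 1 cells with both. That pair gave 0.338 and 0.445 in those led by Kcnq1ot1 and Gm23935, and no cell carried both in the Dlk1 cluster.

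**Figure D3:**
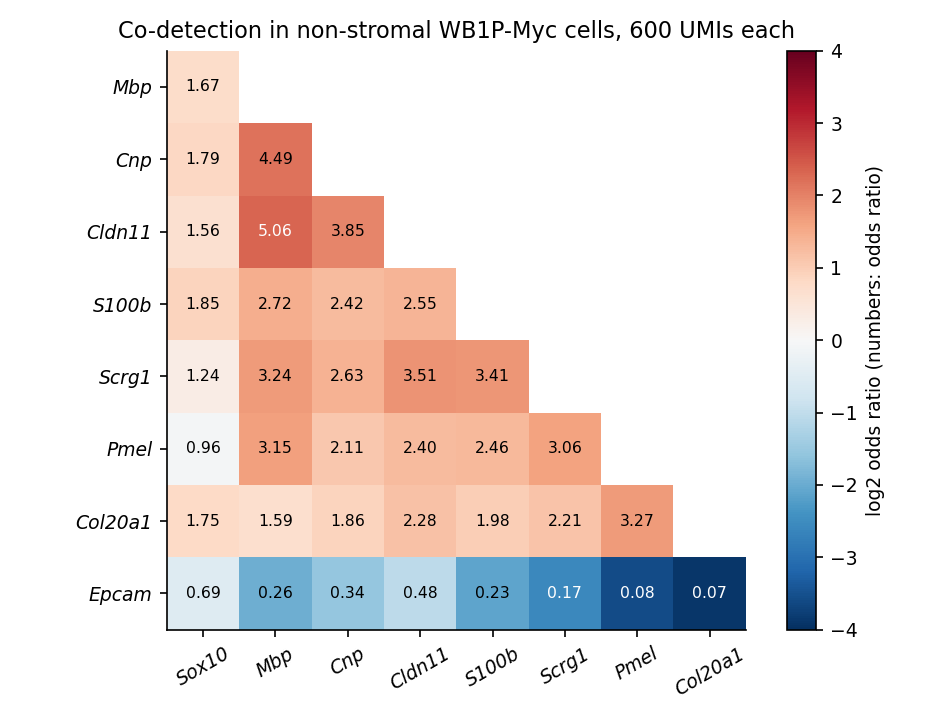
Odds ratios of joint detection for pairs of the 8 genes and Epcam in 2435 non-stromal WB1P-Myc cells thinned to 600 UMIs, in the first of the 20 draws. Colours give the log2 of the odds ratio and the numbers the ratio, which is 5.06 for Mbp with Cldn11, 0.957 for Sox10 with Pmel and under 1 for all 8 pairs with Epcam.

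At 600 UMIs, 1310 non-stromal WB1P-Myc cells (53.8%) carried a UMI of none of the 8 genes, 601 (24.7%) of 1 gene, 321 (13.2%) of 2, 129 (5.30%) of 3 and 74 (3.04%) of 4 or more. At least 2 genes were seen in 21.5% of the cells [19.9 to 23.2], with 22.3%, 22.8%, 19.7% and 20.9% by fraction. The share was 0.446% (3 of 672) in WB1P non-stromal cells, 0.285% (2 of 701) in macrophage-like cells of WB1P-Myc and 0.356% (1 of 281) in its fibroblast-like cells. Cells that carried several of the genes had fewer epithelial transcripts. The summed level of 14 epithelial markers was 1788, 937, 358, 129 and 158 CPM in cells with 0, 1, 2, 3 and at least 4 of the genes, and the share with an Epcam UMI was 17.9%, 10.6%, 3.12%, 1.55% and 1.35%. The last 2 sets hold 129 and 74 cells at 600 UMIs each. Their epithelial and Epcam values rest on few UMIs, and no order is read between them. Further Schwann cell and myelin genes ran the opposite way, at 789, 1647, 2944, 3876 and 7027 CPM. Cartilage genes were highest in the middle, at 2111, 3943, 4029, 3372 and 2365 CPM. The median full depth of these 5 sets of cells was 2876, 2674, 2701, 3205 and 3096 UMIs, without an order.

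**Figure D4:**
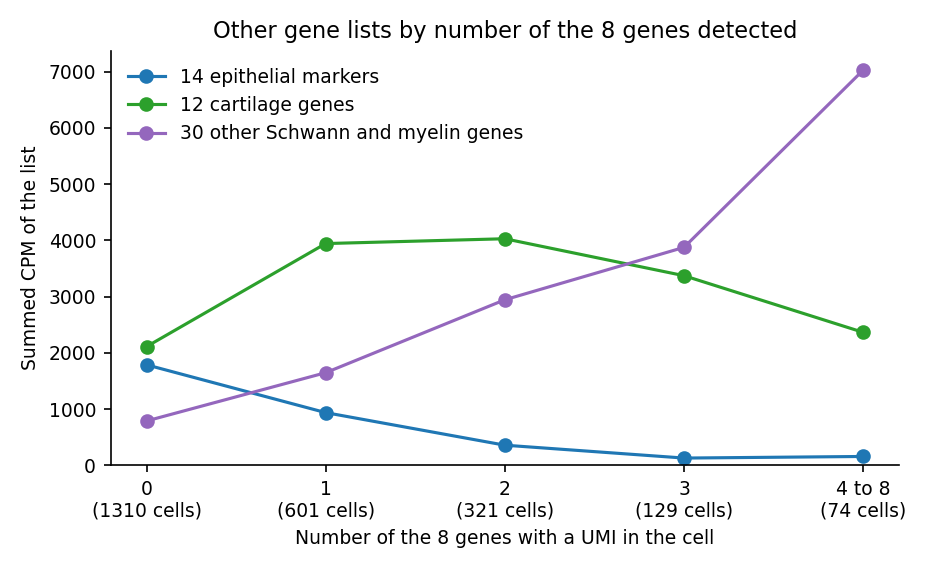
Summed CPM of epithelial markers, cartilage genes and Schwann cell and myelin genes (the 8 genes left out) in non-stromal WB1P-Myc cells thinned to 600 UMIs, by the number of the 8 genes with a UMI. Epithelial markers go from 1788 to 158 CPM and Schwann cell and myelin genes from 789 to 7027 CPM, while cartilage genes peak at 4029 CPM in cells with 2.

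The genes whose pattern was most like that of Sox10 were found by correlation over 22 cluster and fraction sums of WB1P-Myc, for 6963 genes with at least 200 UMIs, on the log2(CPM + 10) scale. Outside the 8 genes they were Dcaf17 (r = 0.947), Cmtm5 (0.923), Wwp2 (0.916), Lsamp (0.914), Plekhb1 (0.911) and 3110079O15Rik (0.907). Among the other 7 genes, r with Sox10 ran from 0.800 for Mbp to 0.934 for Cnp. The other genes most like the mean of the 8 were Lsamp (0.984), Gm10863 (0.972), Bcas1 (0.965), Col9a1 (0.956), Igsf11 (0.955) and Col2a1 (0.954). The 22 sums share 6 clusters and 4 libraries and are not independent, and the list most like Sox10 depended on the clustering and the pseudocount, as given below.

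The neighbours of Sox10 on chromosome 15 were higher in WB1P-Myc together with it. The stretch was chosen after its values were seen, from Txn2 to Tmem184b at chr15:77915051-79403303 (1.49 Mb), and it is described without a test. Of 34 other genes with enough counts in that stretch, 24 met the 4-fold condition in non-stromal cells, where 6.35% of all genes did, and the median log2 difference was 2.43. Txn2, a mitochondrial thioredoxin, was at 123, 92.8, 108 and 96.8 CPM in the WB1P fractions and at 974, 836, 755 and 866 CPM in WB1P-Myc. Eif3d, a subunit of a translation initiation factor, was at 280, 124, 114 and 128 CPM in WB1P and at 1462, 1257, 1232 and 1322 CPM in WB1P-Myc. Polr2f, a shared RNA polymerase subunit whose middle lies 13.2 kb from that of Sox10, was at 226 and 1547 CPM, a 6.84-fold difference. Genes of general function thus differed by more than Sox10 itself, whose difference in these cells was 2.99-fold, or 3.25-fold without WB1P fraction 1.

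Not every gene of the stretch was higher. Lgals1, a galectin gene 231 kb from Sox10, was at 1602, 1300.2, 1066 and 1038 CPM in the WB1P fractions and at 776, 766, 667 and 796 CPM in WB1P-Myc, lower in every WB1P-Myc fraction. Beyond the ends, Myh9 was at 266 and 265 CPM and Csnk1e at 89.3 and 79.1 CPM. At coordinates above Sox10, 1 of 17 genes at 0.3 to 1.5 Mb and 3 of 33 genes at 1.5 to 4 Mb met the condition. At coordinates below it, 2 of 42 genes at 1.5 to 4 Mb did. Among 499 overlapping windows of 1.5 Mb with at least 15 genes each across the genome, the 3 with the highest median log2 difference (2.34, 2.08 and 1.98) all lay here, and the middle window was at 0.08. Ranks 4 to 10 all lay on chromosome 11, with medians from 1.84 down to 1.55, at 74000001-75500000 and within 93500001-98000000. Cnp lies on that chromosome, outside these windows.

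In macrophage-like cells 0 of 10 genes of the stretch met the condition and their median log2 difference was 0.74. Over all 5156 genes tested in those cells 0.291% met it and the median was 0.13, so the count of 0 says little about the stretch. By cluster of WB1P-Myc, the median was taken over the 20 of the 34 genes with at least 20 UMIs in WB1P epithelial-like cells, beside all 8297 genes with that many. Relative to WB1P epithelial-like cells it was 2.61 in the Gpx2 and Gcat cluster, 2.46 in the Lims2, Pmel and Mbp cluster and 0.66 in the Dlk1 cluster, the cluster with the lowest Sox10, where the medians over all genes were -0.17, -0.12 and -0.25. It was 0.15 in both macrophage-like and fibroblast-like cells, with -0.36 and -0.32 over all genes. In the finer clusters it was 3.63 for Mfng and Gcat, 2.80 for Mag and Mbp, 1.79 for Hapln1 and Acan, 1.115 for Krt17 and Krt14, 2.02 for Kcnq1ot1 and Lars2 and 2.32 for Gm23935 and Lars2. Of the 20 genes, 15, 16, 6, 2, 11 and 13 were at least 4-fold higher in these clusters with fractions pooled, against 1.7%, 1.69%, 1.55%, 1.02%, 5.11% and 0.94% of all genes, whose medians lay between -0.26 and 0.13. Genes of the stretch were not left out of the clustering. The leading genes Mfng and Gcat themselves lie within 3 Mb of Sox10 and helped to form these clusters. High values in clusters led by them are therefore partly built in and are no independent evidence. Around the other 7 genes the median log2 difference within 1.5 Mb of them lay between -0.40 for Col20a1 (31 genes) and 0.82 for Cnp (52 genes), against 1.86 for Sox10 (54 genes). The part of the neighbourhood in the Sox10 level was not tested.

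**Figure D5:**
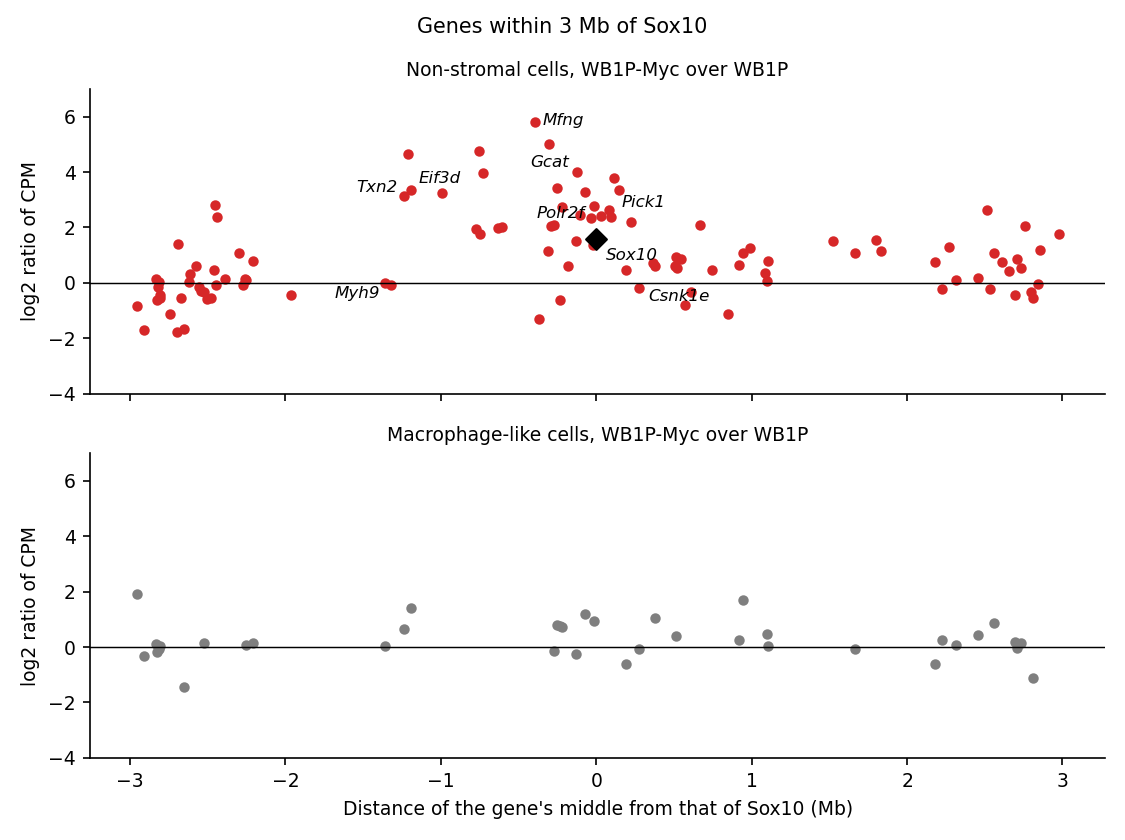
Log2 ratio of CPM in WB1P-Myc over WB1P for genes within 3 Mb of Sox10, by distance between the middles of the genes in Mb, in non-stromal cells and in macrophage-like cells. In non-stromal cells 24 of 34 genes from Txn2 to Tmem184b met the 4-fold condition (6.35% of all genes did), and in macrophage-like cells 0 of 10 did (0.291% of all genes).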

How the data were processed

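Drop-seq libraries of 4 droplet fractions per model were sequenced on a MiSeq and on a HiSeq2500. The authors deposited 16 tables of raw UMI counts per gene symbol and cell barcode (1000 barcodes each), made with dropseq-tools. The submitters' processing notes name Scanpy and mm10, and no source used here gives the aligner or the handling of strand. The HiSeq tables gave the main values.

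Cells with 450 to 4000 genes and under 20% mitochondrial UMIs were kept. After scaling of each cell to 10000 UMIs and a log transform, cells were clustered in scanpy 1.11.5 (30 principal components, 20 neighbours, Leiden resolution 0.3, finer setting 0.6). The 8 genes and the neural crest, Schwann cell and myelin, melanocyte and oligodendrocyte lists were left out, and the cartilage genes were kept. A cluster took a name from at least 3 leading markers. Doublets were not called. UMIs were summed over cells to CPM, with exact Poisson, Clopper-Pearson and conditional binomial 95% intervals, and 3 counts as the limit of a 0. Intervals cover counting error only, and PCR or sampling of animals is not in them. With 1 sample per model no p-value was computed. A gene met the condition at 4-fold with all fractions of one model above those of the other and at least 50 UMIs. The script was tested on simulated counts. TMM and DESeq2 size factors came from edgeR 4.0.16 and DESeq2 1.42.0 in R 4.3.3.

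The 8 genes and all lists were chosen with earlier results of these data known. All 8 genes are named, with up to 4 of each list by level (some are not reported here) and the 6 most like Sox10 and the mean. Other list genes named here (Mog, Tfap2a, Tfap2b, Tfap2c, Msx1 and Snai1) and the chromosome 15 genes were chosen after their values were seen. Alternatives covered the run, cell limits, fractions, scaling, clustering, thinning and pseudocount.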

Additional observations from a re-analysis of the deposited data

Results flagged for a closer look

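Over 12 sets of fraction values of a gene in a model, 1 held a value far from the other 3, where chance gives about 1 in 20. It was Sox10 in WB1P fraction 1, at 148 CPM against 31.8 to 34.4 CPM, on 14 UMIs in 65 cells. Of those 65 cells 60 lay in the WB1P epithelial-like cluster, against 210 of 426, 178 of 394 and 202 of 422 in fractions 2 to 4. Within that cluster Sox10 was at 157 CPM in fraction 1 and at 47.7, 60.9 and 54.2 CPM in the others. The part of the low cell number and of the cell composition in the value was not tested.

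WB1P-Myc barcodes with more than 4000 genes, which the main values leave out, carried the 8 genes at a summed 808 CPM (134 barcodes), and 88.8% of them had at least 2 of the genes. WB1P barcodes of that size had 130 CPM (40 barcodes), and kept cells had 1493 and 92.9 CPM. Barcodes that hold more than 1 cell were not identified.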

How the results depend on the processing

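No paired analysis was possible because the models were 1 sample each, and no result on models, clusters or pairs of genes came from a test. The median of the neural crest list turned from -0.37 to 0.11 with the UMI filter. No alternatives were run for levels in the finer clusters or for the windows by distance and across the genome. The stretch from Txn2 to Tmem184b had only those given below. All 128 log2 ratios of single genes between the models under alternatives stayed between 1.64 and 9.17 (with the macrophage-like level subtracted, the WB1P level fell below the limit of 3 counts for Mbp, Cnp, Cldn11, Pmel and Col20a1, and their ratios there, 5.45 to 8.78, only reflect that limit), and 104 ratios over macrophage-like cells between 0.60 and 4.96. Leaving out 1 fraction gave 7 to 8 genes that met the 4-fold condition (8 without WB1P fraction 1), and TMM factors gave 8 with a shift of the median gene to 0.15. The summed log2 ratio over macrophage-like cells, 3.48, was 3.81 in the MiSeq run, 2.67 without an upper gene limit, 3.11 at the finer clustering, 3.13 with 2000 variable genes and 0.83 with classes set per cell from markers, and 3.40 to 3.54 with a fraction left out. The cause was not tested. The share of cells with at least 2 genes, 21.5%, was 23.0% in the MiSeq run, 18.8% with classes set per cell, 53.9% without thinning and 38.4% at 1200 UMIs, and 21.1% to 22.0% with a fraction left out. The odds ratio of Sox10 with Mbp in the first draw, 1.67, was 3.42 without thinning and 2.74 at 1200 UMIs, and 1.41 to 1.81 with a fraction left out. Of the 6 genes most like Sox10, 1 remained at the finer clustering and 3 with a pseudocount of 1 or of 50 CPM. In alternatives chosen after seeing the data, 17 of the Schwann cell and myelin genes met the condition without WB1P fraction 1 and 10 in the MiSeq run, and 22 and 19 of the genes near Sox10 did, against 24. The MiSeq run had fewer UMIs and no share over all genes was taken for it, so its counts are not comparable with the others. The values of Mitf, Col9a1, Twist1 and the neural crest median without that fraction were added in the same way. The background share was 4.04% with at least 10 UMIs and 2.88% with 1. Low counts in WB1P limit the ratios of Cldn11, Pmel and Col20a1.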
